A study of Mus musculus with 14 samples.

Results

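Krt15, Lgr6 and Sostdc1, a trio of genes used as markers of stem cells in the hair follicle, were followed in mouse back skin over the first day after irradiation with ultraviolet (UV) light. They were found by their symbols among the 10980 genes of the deposited expression table, and all 3 are listed. The genes were selected on their FPKM levels over the 6 times in these same libraries, so their values at every time are given as a description, with no test. Tests were applied to other genes of the same follicle and signalling lists. The animals were wild type C57BL/6 mice whose back fur had been depilated, and full thickness skin was sampled, per the labels. There were 2 libraries of unirradiated skin (0 h), and 2, 3, 3, 2 and 2 libraries taken 0.5, 2, 6, 12 and 24 h after exposure to a mixed UV source. The labels state no age, sex, UV dose, time of day or interval between depilation and irradiation. Unirradiated skin was sampled once, at 0 h, so time after UV cannot be told apart from time of day or time after depilation. Separate animals are not stated for the libraries of any group, so p-values measure only the spread between these samples, which may be technical.

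The hair follicle renews itself from stem cells that sit in its permanent upper part. Krt15 encodes a type I keratin of basal epithelial cells and is a common marker of the bulge, where slowly cycling follicle stem cells lie. Lgr6 encodes a receptor for R-spondins, secreted proteins that strengthen Wnt signalling, and marks stem cells above the bulge, in the isthmus, that can contribute to the sebaceous gland and the epidermis. Sostdc1 (also called ectodin or Wise) encodes a secreted antagonist that binds bone morphogenetic proteins (BMPs) and modulates Wnt signalling through its coreceptors. Wnt signals favour growth of the follicle and BMP signals favour rest of its stem cells. Full thickness skin also holds epidermis, dermis, fat, vessels, immune cells and muscle, and in such bulk samples fewer cells of a type and less RNA per cell cannot be told apart.

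In GENCODE M21 on GRCm38, the assembly that mm10 names, Krt15 lies on chromosome 11 (100131758 to 100135928, minus strand), Lgr6 on chromosome 1 (134983301 to 135105276, minus strand) and Sostdc1 on chromosome 12 (36314139 to 36318452, plus strand). No other annotated gene overlaps any of them on either strand. The promoter of Lgr6 is shown because it is the start region of the trio's R-spondin receptor gene. It could be searched for letters bound by factors of the Wnt and BMP pathways, and of stress pathways, which no companion list covers. It covers chr1:135105227-135105526 on the minus strand (RefSeq, GRCm38.p6), 250 bases before the start and 50 after it, and the capitals mark the 50 bases after the start.

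Lgr6 promoter: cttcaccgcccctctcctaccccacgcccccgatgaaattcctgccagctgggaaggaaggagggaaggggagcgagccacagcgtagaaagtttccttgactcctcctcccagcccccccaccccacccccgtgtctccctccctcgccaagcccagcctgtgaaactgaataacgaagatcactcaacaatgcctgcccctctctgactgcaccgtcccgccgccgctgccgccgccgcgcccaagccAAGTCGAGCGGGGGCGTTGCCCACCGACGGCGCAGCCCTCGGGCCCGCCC

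The window was searched on both strands for the TCF/LEF core CTTTGA, the AP-1 site TGANTCA and the SMAD palindrome GGCGCC, and held none of these letters. Among all 32851 promoters of this length, 16% held the first, 7.81% the second and 11.9% the third. Promoters of Krt15 and Sostdc1 were not used here.

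Levels are FPKM, sequenced fragments divided by transcript length in kilobases and by the number of mapped fragments. The 14 libraries fall into 3 kinds of columns, called library sets here, which differ in their number format and headers. Set 1 has 1 library per time point, set 2 has 5 libraries (no 0.5 h) and set 3 has 3 (0.5, 2 and 6 h, with no unirradiated library). Some genes differ strongly between sets. Bmpr2 had 4.71, 3.66 and 5.63 FPKM at 0.5, 2 and 6 h in set 3, against 15.3, 12.3 and 11.4 FPKM in set 1. Levels of different genes are thus not strictly comparable, and their ratios are given only for comparison between times within 1 set. The median residual SD over all genes was 0.155 (log2) with the set as a term and 0.335 without it, so each value is given with its set and changes were fitted with that term. In the 8 libraries of sets 2 and 3 whole reads could be recovered, 12327907 to 15550419 per library, and the depth of set 1 is unknown. Krt15 had 3317 to 17146 reads there, Sostdc1 477 to 1810 and Lgr6 94 to 374, so counting error matters most for Lgr6. Its 94 reads in set 2's 6 h library have an exact 95% Poisson interval of 76 to 115, against 220 to 283 around the 250 reads of the unirradiated library of that set. Such intervals cover counting error only.

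Krt15 was the most abundant of the trio and stood at 52.2% of its unirradiated level at 6 h in set 1 and at 46.8% in set 2. In set 1 it had 364 FPKM at 0 h, followed by 312, 317, 190, 276 and 221 FPKM at 0.5, 2, 6, 12 and 24 h. In set 2 it had 354 FPKM at 0 h, followed by 259, 166, 169 and 144 FPKM at 2, 6, 12 and 24 h. In set 3 it had 624, 484 and 318 FPKM at 0.5, 2 and 6 h. All 3 libraries at 6 h, and both at 12 and at 24 h, lay below both unirradiated libraries, while the set 3 libraries at 0.5 and 2 h lay above them. With the set as a term, the log2 change of log2(FPKM + 1) against unirradiated skin was -0.24 ± 0.19, -0.37 ± 0.16, -1.03 ± 0.16, -0.73 ± 0.17 and -1.0 ± 0.17 at 0.5, 2, 6, 12 and 24 h (± standard error). The 2 sets with later times gave different values for Krt15 after 6 h. In set 1 Krt15 was at 76.0% of its unirradiated level at 12 h and 60.8% at 24 h, and in set 2 at 47.7% and 40.6%.

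Lgr6 was a low-level gene in every library and had its lowest value at 6 h in each set. In set 1 it had 7.83 FPKM at 0 h, followed by 4.60, 3.81, 2.65, 4.73 and 4.72 FPKM at 0.5, 2, 6, 12 and 24 h. In set 2 it had 5.08 FPKM at 0 h, followed by 3.65, 2.04, 2.90 and 3.30 FPKM at 2, 6, 12 and 24 h. In set 3 it had 6.46, 3.83 and 3.29 FPKM at 0.5, 2 and 6 h. Every library at 2, 6, 12 and 24 h lay below both unirradiated libraries, and set 3's 0.5 h library lay between them. Its log2 change was -0.42 ± 0.19, -0.72 ± 0.17, -1.12 ± 0.17, -0.63 ± 0.18 and -0.56 ± 0.18 at 0.5, 2, 6, 12 and 24 h. Because a pseudocount of 1 understates changes at such levels, the 6 h value was -1.37 with a pseudocount of 0.1. In plain FPKM, the 6 h level was 33.8% of the unirradiated level in set 1 and 40.1% in set 2, and at 24 h it was 60.3% and 64.9%.

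Sostdc1 also had its lowest value at 6 h in each set, and stayed near that level to 24 h in set 2. In set 1 it had 39.8 FPKM at 0 h, followed by 32.1, 23.6, 16.4, 21.5 and 23.6 FPKM at 0.5, 2, 6, 12 and 24 h. In set 2 it had 48.1 FPKM at 0 h, followed by 39.9, 21.4, 23.5 and 21.4 FPKM at 2, 6, 12 and 24 h. In set 3 it had 64.7, 48.9 and 25.3 FPKM at 0.5, 2 and 6 h. The libraries at 6, 12 and 24 h lay below both unirradiated libraries, and those at 2 h overlapped with them. Its log2 change was -0.18 ± 0.20, -0.48 ± 0.17, -1.25 ± 0.17, -0.93 ± 0.18 and -0.93 ± 0.18 at 0.5, 2, 6, 12 and 24 h. Within set 3, the 6 h level was 39.1% of the 0.5 h level for Sostdc1, against 51.0% for Krt15 and 51.0% for Lgr6.

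**Figure D1:**
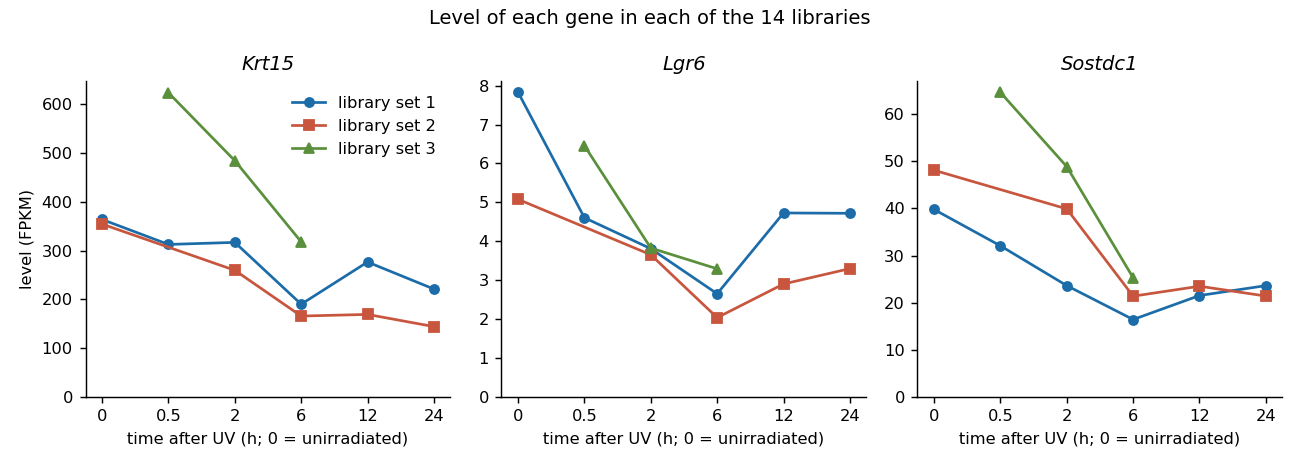
Level in FPKM (vertical axes, from 0) of Krt15, Lgr6 and Sostdc1 at 6 times after UV (horizontal axes, evenly spaced), with 1 point per library and 1 line per library set. Each gene is lower at 6 h than at the set's first time in all 3 sets, and Krt15 goes on to its lowest value, 144 FPKM, at 24 h in set 2.

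The count of trio genes whose libraries all lay below both unirradiated libraries was 0 of 3 at 0.5 h, 1 of 3 (Lgr6) at 2 h, and 3 of 3 at each later time. Among all 10980 genes this held for 20.5%, 14.3%, 15.8%, 21.6% and 13.5% at these times. Nothing is read from this count, because the trio was chosen with these comparisons known. Ranked from the lowest change of all genes at 6 h, Sostdc1 was at rank 50, Lgr6 at 80 and Krt15 at 115. At 24 h the ranks were 207 for Sostdc1, 512 for Lgr6 and 175 for Krt15. The median change of all genes was -0.02 at 6 h and 0.02 at 24 h.

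Ordered by level with the set effect removed, each gene was highest at 0 h, next highest at 0.5 h and lowest at 6 h. Set 1 is the only set with libraries at both 0 and 0.5 h. Set 3's 0.5 h library bears on the first step, from 0 to 0.5 h, only through that set's 2 and 6 h libraries. For Sostdc1 the first step turned in sign, to a change of 0.02 at 0.5 h, without set 1's 0.5 h library. Without that library the change at 0.5 h was -0.0011 for Krt15 and -0.17 for Lgr6. For Krt15 and for Sostdc1 the order after 0.5 h was 2, 12, 24 and 6 h, and for Lgr6 it was 24, 12, 2 and 6 h. Neighbours in this order differed by less than the gene's residual SD (0.19 for Krt15, 0.17 for Lgr6 and 0.21 for Sostdc1, log2) between 0.5 and 2 h and between 24 and 6 h for Krt15. The same held for Lgr6 from 0.5 to 24 h, from 24 to 12 h and from 12 to 2 h, and for Sostdc1 between 0 and 0.5 h and between 12 and 24 h. The 6 h value of Lgr6 and of Sostdc1 lay further than 1 residual SD below the next value. At 24 h minus 6 h the log2 change was 0.03 ± 0.16 for Krt15, 0.55 ± 0.17 for Lgr6 and 0.32 ± 0.17 for Sostdc1.

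The libraries of a set were grouped by number format and header, which do not state shared processing. Those of sets 1 and 2 share 1 unirradiated library per set. Within a set, the Pearson correlation of log2 levels was 0.84 between Krt15 and Sostdc1 in set 1 (6 libraries) and 0.98 in set 2 (5 libraries). It was 0.89 and 0.84 between Lgr6 and Sostdc1, and 0.74 and 0.79 between Krt15 and Lgr6. These are descriptions of few points with a common early-to-late difference.

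The change of Krt15 was set beside those of the keratin pair of the basal layer, with no test of the difference. Krt14 and Krt5, which pair to form the filaments of basal keratinocytes, did not pass the test at any time. Krt14 had 1456, 1065 and 1586 FPKM at 6 h in sets 1, 2 and 3, against 1856 and 1226 FPKM at 0 h in sets 1 and 2, a log2 change of -0.39 ± 0.17 (limma adjusted p = 0.220). Krt5 had a log2 change of -0.47 ± 0.15 at 6 h (limma adjusted p = 0.0970). In set 1 Krt15 was at 13% of the Krt14 level at 6 h and 11.7% at 24 h, against 19.6% at 0 h. In set 2 it was at 15.6% and 13.8%, against 28.9% at 0 h. In set 3 it was at 20.0% at 6 h, against 28.0% at 0.5 h. Type I keratins share stretches of sequence, and how the authors assigned reads that match several of them is not given in the sources used here, so their levels are uncertain to that extent.

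**Figure D2:**
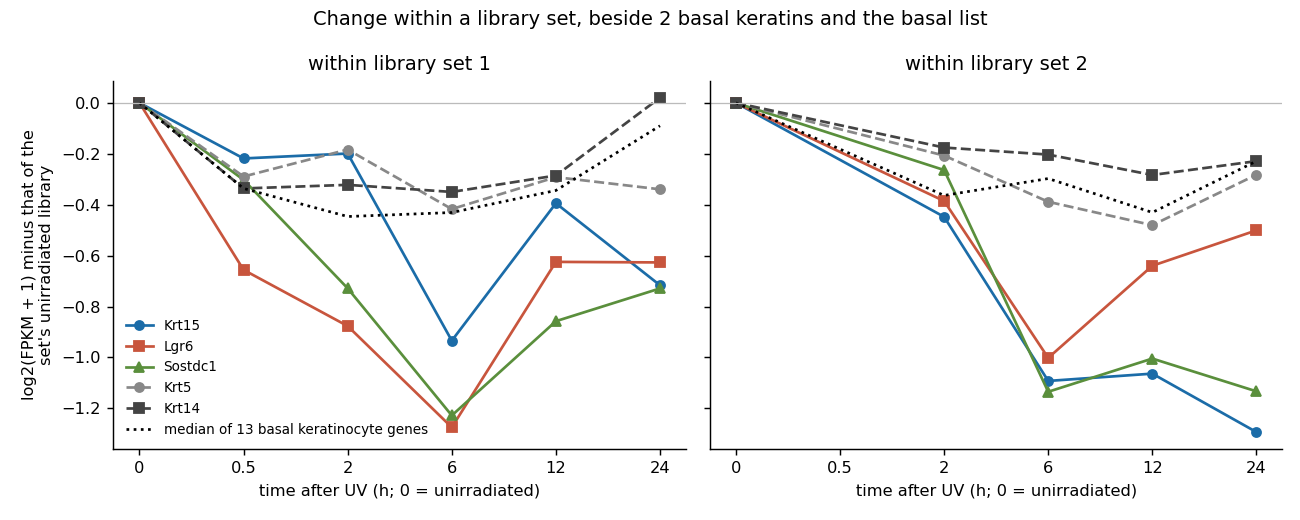
Difference in log2(FPKM + 1) from the set's own unirradiated library (vertical axis) by time after UV (horizontal axis), in library set 1 (left) and set 2 (right). At 6 h Krt15, Lgr6 and Sostdc1 lie between -0.93 and -1.27, below Krt5, Krt14 and the median of the 13 basal keratinocyte genes (-0.43 in set 1 and -0.30 in set 2). The median does not show single genes of that list, of which Col17a1 at 6 h was lower on this measure than Krt15, Lgr6 and Sostdc1 in both sets.

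Lgr6 was also set beside its paralogues, again with no test of the difference. Lgr4, a widely expressed receptor for the same R-spondins, had 22.7, 35.6 and 18.0 FPKM at 6 h in sets 1, 2 and 3, against 23.2 and 27.3 FPKM at 0 h in sets 1 and 2. Its log2 change at 6 h was 0.23 ± 0.15 (limma adjusted p = 0.389). Lgr6 was at 11.7% of the Lgr4 level at 6 h in set 1, against 33.7% at 0 h, and at 5.72% in set 2, against 18.6% at 0 h. Lgr5, the paralogue that marks cycling stem cells of the lower bulge and hair germ, had 6.16, 8.29 and 5.62 FPKM at 6 h in sets 1, 2 and 3, against 10.5 and 15.6 FPKM at 0 h. Its log2 change was -0.66 ± 0.18 at 6 h (limma adjusted p = 0.0713) and -0.02 ± 0.19 at 24 h. All 18 measured genes of the list of Wnt and R-spondin receptors and their turnover, which holds Lgr4 and Lgr5, failed to pass the test at every time.

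**Figure D3:**
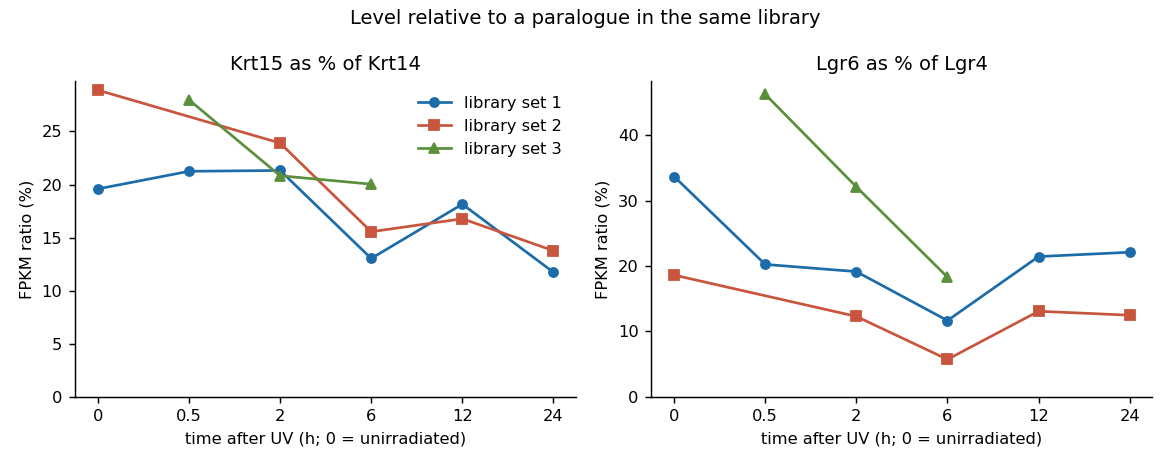
Level of Krt15 as a percentage of Krt14 (left) and of Lgr6 as a percentage of Lgr4 (right) in each library, by time after UV, with 1 line per library set and axes from 0. Each ratio at 6 h is below that of the set's first library, down to 13% for Krt15 in set 1 and 5.72% for Lgr6 in set 2.

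The genes that belong with the trio were taken from 10 lists of 162 genes in all, of which 124 are in the table and none is a trio gene. Limma called 4 of the 124 at 2 h (1 higher, 3 lower), 9 at 6 h (2 higher, 7 lower), 5 at 12 h and 5 at 24 h (1 higher and 4 lower each). At 0.5 h it called 0, with 15 at an unadjusted p under 0.05. These are 3.23%, 7.26%, 4.03% and 4.03% of the measured companions at 2, 6, 12 and 24 h. Among all genes 0.1% were called at 0.5 h (0.00911% higher and 0.0911% lower) and 2.79% at 2 h (0.228% higher and 2.56% lower). The share was 4.32% at 6 h (0.902% higher and 3.42% lower), 3.81% at 12 h (0.574% higher and 3.23% lower) and 2.19% at 24 h (0.328% higher and 1.87% lower). The 5 comparisons share the same 2 unirradiated libraries. The counts rest on few libraries: at 6 h limma called 0 without set 2's 6 h library, 1 without either unirradiated library, 4 without set 1's 6 h library, 5 without either 0.5 h library or set 1's 2 h library, and 15 without set 3's 6 h library. In a fit without the term for the library set, limma called 0 of the 124 and also 0 of all 10980 genes at every time, with 10 of the 124 at an unadjusted p under 0.05 at 6 h. The median change of the 124 genes at 6 h was 0.09, against -0.02 for all genes.

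Among the 19 measured genes of the list of other follicle stem cell and upper follicle markers, 4 fell at some time and 15 did not pass at any. Of all genes, 8.03% were called at 1 or more of the 5 times, 1.59% higher and 6.45% lower, which is the share to set beside this and the later counts over all times. Nfatc1, which encodes a transcription factor that keeps bulge stem cells quiescent, had 2.65, 2.08 and 2.58 FPKM at 6 h in sets 1, 2 and 3, against 8.61 and 5.40 FPKM at 0 h in sets 1 and 2. All libraries from 0.5 h on except that of 12 h in set 1 lay below both unirradiated libraries. It fell at 3 times, with log2 changes of -1.01 ± 0.14, -1.22 ± 0.14 and -0.78 ± 0.14 at 2, 6 and 24 h (limma adjusted p = 0.00769 at 6 h), and the 6 h call was lost only without set 2's 6 h library, of 14 fits that each left out 1 library. Lrig1, which encodes a brake on growth factor receptors and marks the junction zone above the bulge, fell by 0.63 ± 0.12 at 2 h (limma adjusted p = 0.0250) and by 0.57 ± 0.12 at 6 h. Npnt, which encodes a matrix protein laid down by bulge cells, fell by 0.76 ± 0.15 at 12 h (limma adjusted p = 0.0214) and by 0.73 ± 0.15 at 24 h. Cd34, a surface marker of bulge cells that endothelial cells and fibroblasts also carry, fell by 0.73 ± 0.17 at 6 h (limma adjusted p = 0.0415).

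The bulge markers did not all follow this course. Sox9, a transcription factor of bulge and outer root sheath cells, had a log2 change of -0.23 ± 0.13 at 6 h and 0.42 ± 0.14 at 12 h (limma adjusted p = 0.350 and 0.146). The list's median change was -0.22, 0.02 and -0.06 at 6, 12 and 24 h. The 2 h call of Lrig1 was lost without either unirradiated library and without the 2 h libraries of sets 1 and 3 (each left out in turn), and its change lay between -0.71 and -0.55 over the 14 fits. The 12 h call of Npnt was lost without either unirradiated library or either 12 h library, with a range of -0.82 to -0.71. The call of Cd34 was kept only without set 2's 2 h library or set 3's 6 h library, with a range of -0.91 to -0.60.

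On the Wnt side, the largest change was in a ligand. Wnt7b, an epidermal and follicular Wnt ligand, had 3.46 and 1.90 FPKM at 12 h in sets 1 and 2, against 16 and 6.50 FPKM at 0 h. It fell at 4 times, with log2 changes of -0.92 ± 0.19, -1.10 ± 0.19, -1.65 ± 0.20 and -1.35 ± 0.20 at 2, 6, 12 and 24 h (limma adjusted p = 0.00293 at 12 h), and the 12 h call was kept in all 14 fits that left out 1 library. The other 14 measured Wnt and R-spondin ligand genes did not pass. Sfrp1, a secreted inhibitor that binds Wnt proteins, was the 1 of 13 measured Wnt inhibitors that passed, and fell by 0.76 ± 0.17 at 6 h (limma adjusted p = 0.0368). Of 14 Wnt target and effector genes, the cell cycle gene Ccnd1 fell by 0.65 ± 0.13 at 6 h (limma adjusted p = 0.0271) and the growth regulator Myc rose by 0.54 ± 0.13 (limma adjusted p = 0.0431). Axin2, a feedback inhibitor used as a readout of canonical Wnt signalling, had a log2 change of 0.31 ± 0.13 at 6 h (limma adjusted p = 0.195).

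On the BMP side, 1 ligand rose at 6 h and 1 target gene fell. Bmp4, a BMP ligand of the dermal papilla and dermis, had 56.2, 35.6 and 23.6 FPKM at 6 h in sets 1, 2 and 3, against 37.3 and 23.1 FPKM at 0 h in sets 1 and 2, and within each set the 6 h library was the higher one. In set 3 it was at 13.9 FPKM at 0.5 h. It rose by 0.59 ± 0.12 (limma adjusted p = 0.0293). Id4, one of the Id genes that BMP signals induce, fell by 0.88 ± 0.15 at 6 h (limma adjusted p = 0.0164), with 23.2, 25.1 and 29.1 FPKM in sets 1, 2 and 3, against 42.6 and 49.3 FPKM at 0 h in sets 1 and 2. Id1, another of these, had a log2 change of 0.22 ± 0.20 (limma adjusted p = 0.535), and the list's median was 0.26. Fstl1, a secreted protein of mesenchymal cells that binds BMP4, fell by 0.80 ± 0.19 at 12 h (limma adjusted p = 0.0470), and the 7 measured BMP receptor and SMAD genes did not pass at any time.

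Several of these calls were lost when 1 library was left out. Ccnd1 and Id4 lost theirs without either unirradiated library or set 2's 6 h library, with ranges of -0.78 to -0.58 and -0.94 to -0.82. Bmp4 and Sfrp1 kept theirs in 7 of 14 fits, losing them without either unirradiated or either 0.5 h library, set 1's 2 h library or the 6 h libraries of sets 1 and 2, with ranges of 0.48 to 0.71 and -0.92 to -0.60. Myc kept its call in 2 of 14 fits, without set 2's 24 h library and without set 3's 6 h library, with a range of 0.35 to 0.74. Fstl1 kept it in 4, without the unirradiated library of set 1, set 2's 2 h library, set 1's 6 h library or set 3's 6 h library, with a range of -1.10 to -0.51.

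Among 19 other type I keratins measured, 3 passed. Krt16, a keratin of wounded epidermis and the outer root sheath companion layer, had 585 and 167 FPKM at 24 h in sets 1 and 2, against 27.1 and 22.8 FPKM at 0 h, and rose by 3.6 ± 0.65 (limma adjusted p = 0.0197). Krt10, the type I keratin of the suprabasal layers, fell, with log2 changes of -1.45 ± 0.33 at 12 h and -1.66 ± 0.33 at 24 h (limma adjusted p = 0.0292 at 24 h). Krt28, of the inner root sheath, rose by 0.61 ± 0.13 at 2 h and 0.68 ± 0.13 at 12 h (limma adjusted p = 0.0219 at 12 h). Each kept its call in 10 of 14 fits that left out 1 library, and lost it without either unirradiated library. The other lost calls were without either 24 h library for Krt16, either 12 h library for Krt28, and the 24 h and 6 h libraries of set 2 for Krt10. At 24 h against 6 h, limma called 3 of the 124 companions, against 3.11% of all genes (1.91% higher and 1.2% lower). Sfrp1 was higher at 24 h by 0.91 ± 0.17, and Krt10 and Id2, another Id gene, which is outside the rule for named genes and was named after its values were seen, were at -1.51 ± 0.31 and -0.58 ± 0.11.

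**Figure D4:**
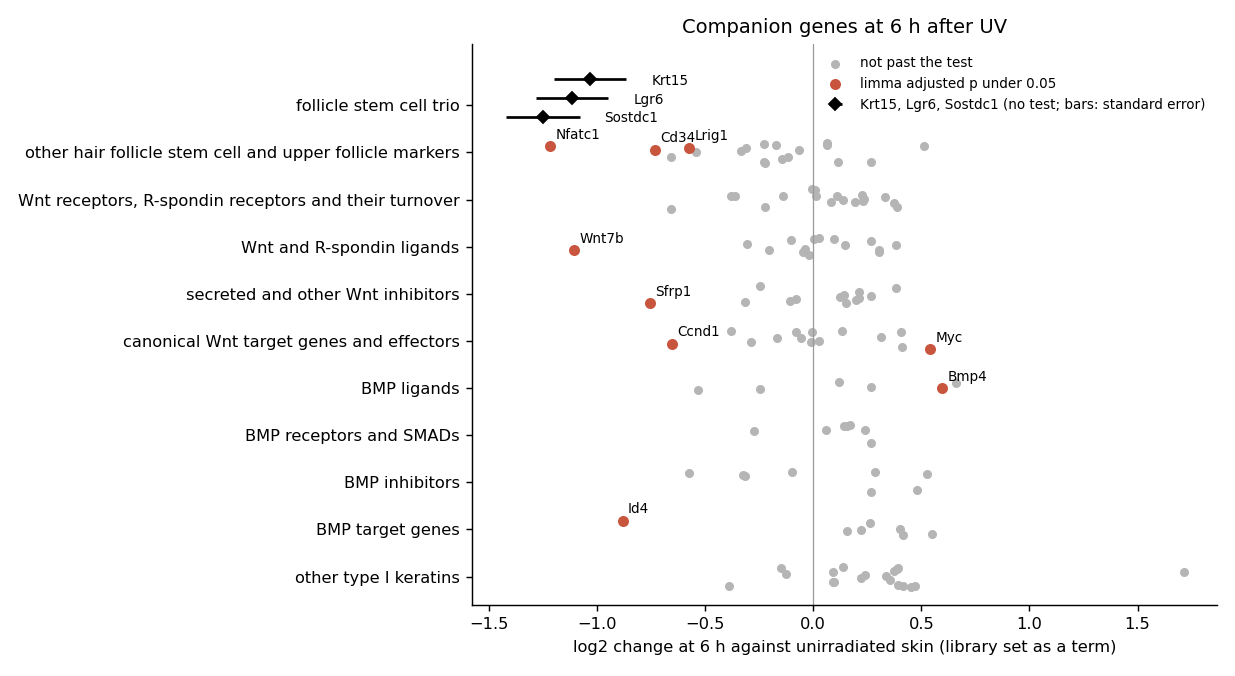
Log2 change at 6 h against unirradiated skin (horizontal axis) for the trio, shown with its standard error and no test, and for each measured gene of the 10 companion lists (rows). Genes with a limma adjusted p under 0.05 are coloured and named: 7 lie below 0 and 2 above, and Nfatc1 (-1.22) and Wnt7b (-1.10) lie within the range of the trio's values.

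Markers of the skin's cell types moved as well. All 13 basal keratinocyte genes were measured and above 0 in every library. Their summed level was 3107 to 4507 FPKM at 0 h. It was 2491 to 3534 FPKM at 6 h and 2600 to 3949 FPKM at 24 h. Most of this sum was Krt5 and Krt14, so it says little about the other genes of the list. Of these 13, 3 fell at 6 h (Itga6, Col17a1 and Dst, genes of the anchoring junction to the basement membrane), where 3.42% of all genes fell. With the basal list's median subtracted within each set, Krt15 was at -0.50 and -0.79 at 6 h in sets 1 and 2, Lgr6 at -0.84 and -0.70, and Sostdc1 at -0.80 and -0.84. At 12 h that difference was -0.05 for Krt15 in set 1. In set 2 Krt15 was at -1.06 at 12 h, before subtraction, and the basal list's median at -0.43. The 7 outer root sheath and companion layer genes summed to 1770 to 2895 FPKM at 6 h, against 1880 to 2099 FPKM at 0 h, and 9 of 13 dermal papilla genes were measured, at 58.7 to 102 FPKM, against 71.5 to 76.8 FPKM at 0 h. Both overlapped with the unirradiated libraries, and most of the outer root sheath and companion layer sum was Krt17. Of the 7 outer root sheath and companion layer genes, Krt6b and Gjb6 rose at 6 h, where 0.902% of all genes rose, and no dermal papilla gene was called.

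The fibroblast and skeletal muscle sums at 6 h overlapped with those at 0 h. The 9 fibroblast genes summed to 1354 to 2347 FPKM at 6 h, against 2138 to 5288 FPKM at 0 h, and 23 of 24 skeletal muscle genes to 6225 to 10415 FPKM at 6 h, against 4045 to 6463 FPKM at 0 h. At 6 h Col1a2 and Lum fell among the fibroblast genes, with a list median of -0.92, and no muscle gene was called. At 12 h, when Fstl1 fell, 7 of the 9 fibroblast genes fell, against 3.23% of all genes, with a list median of -1.33 and a sum of 974 to 1431 FPKM. No measured gene of either list was at 0 in any library. With the muscle genes' mean level added to the model, the 6 h changes were -0.85 ± 0.21 for Krt15, -1.03 ± 0.23 for Lgr6 and -1.26 ± 0.24 for Sostdc1, and the 2 h change of Krt15 was -0.18 ± 0.21. The 10 suprabasal genes and the 16 hair shaft and inner root sheath genes summed to 4081 to 6834 and 22558 to 32585 FPKM at 6 h, against 3857 to 8836 and 20020 to 26833 FPKM at 0 h, and no gene of these lists was called at 6 h. The 8 smooth muscle and pericyte genes summed to 280 to 316 FPKM, against 248 to 301 FPKM. Much of this sum was Des, which is also on the skeletal muscle list. Des had 151, 159 and 115 FPKM at 6 h in sets 1, 2 and 3, against 107 and 83.3 FPKM at 0 h in sets 1 and 2. The median change of the 8 genes was -0.53 at 6 h (-0.49 within set 1 and -0.43 within set 2), and Myh11 fell. The 12 sebaceous gland genes summed to 873 to 985 FPKM at 6 h, below the 1060 to 1402 FPKM at 0 h, and 4 of them fell (Far2, Fasn, Pparg and Krt79), with a list median of -0.48. The part of the fibroblast, smooth muscle and sebaceous genes in the trio's values, and of the fibroblast genes in that of Fstl1, was not tested.

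The genes whose course was most like each trio gene were sought among 1472 genes that varied enough in sets 1 and 2. They were ranked by the lower of the Pearson correlations within set 1 (6 libraries) and set 2 (5 libraries). Each set has its own unirradiated library, which all genes compared within that set share. For Krt15 the 6 genes most alike were Pxmp4 (0.90 in set 1 and 0.91 in set 2), Elovl5, Sostdc1, Cd209a, Srgap2 and Slc46a2. For Lgr6 they were Plekha2 (0.96 and 1.0), Sh3d19, Zbtb7c, Atp2b4, Camkk1 and Frmpd1. For Sostdc1 they were Slc46a2 (0.97 and 0.97), Plekha5, Ggt6, Camkk1, Itpr2 and Srgap2. Sostdc1 was at rank 3 for Krt15, whereas Krt15 was at rank 40 for Sostdc1 and at rank 117 for Lgr6. The choice depended on the measure: ranked by Spearman's rho, 3, 3 and 2 of the 6 names stayed within the top 6 for Krt15, Lgr6 and Sostdc1, and over all 14 libraries with the set term removed 2, 1 and 1 did. At 6 h the log2 changes of these genes lay between -0.53 for Srgap2 and -1.42 for Cd209a.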

How the data were processed

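RNA of 14 libraries of mouse back skin was sequenced by the authors, who deposited 1 table of FPKM values per gene and library; the submitters' processing notes list TopHat2 2.1.0, Cufflinks 2.2.1 and the build mm10 but no role for each. Annotation, gene filter and strandedness: not given in the sources used here. Columns were assigned to times by header, which carries no replicate number, and to library sets by number format and header; the unirradiated library of set 2 went there because its mean Pearson r was 0.964 with set 2, 0.900 with set 1 and 0.888 with set 3. Deviations from the time means were shared within a set (r from 0.411 to 0.895 over 28 pairs, against -0.859 to 0.492 over 53 pairs from different sets), so the set was the block in the fit. Whole reads in sets 2 and 3 were recovered from column ratios (relative tolerance 1e-12, 10954 of 10954 genes above 0) and used for depth alone. limma 3.58.1 (R 4.3.3) was fitted to log2(FPKM + 1) of all 10980 genes with time and set as terms, a trend on mean level (residual degrees of freedom: 6). Tests were two-sided, p-values were adjusted over all genes by Benjamini and Hochberg, with a threshold of 0.05; a gene rose or fell if it passed. The model was tested on simulated data. Genes named were all companion genes called at any of 5 times, plus Lgr4, Lgr5, Krt14, Krt5, Cd34, Sox9, Lrig1, Axin2, Bmp4 and Id1; likeness needed an SD of at least 0.25 (log2) in sets 1 and 2. Members, lists and the set term were chosen with earlier results of these data known. Alternatives were the fit with no set term, a pseudocount of 0.1, a filter at a mean of 5 FPKM, 2 other scalings, within-set values, a muscle covariate and leaving out each library.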

Additional observations from a re-analysis of the deposited data

How the results depend on the processing

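At 6 h the trio was lower than unirradiated skin under every alternative run. Values are log2 changes. The fit with no replicate block (no term for the library set) gave 0.30, -0.072 and -0.73 for Krt15 at 0.5, 2 and 6 h, -0.18 for Lgr6 and 0.058 for Sostdc1 at 0.5 h, and called 0 of the companion genes and 0 of all 10980 genes at every time (companions: 2, 8, 10, 7 and 6 at an unadjusted p under 0.05 at 0.5, 2, 6, 12 and 24 h). Within set 1, Krt15 was at -0.39 and -0.72 at 12 and 24 h, Lgr6 at -0.66 at 0.5 h and Sostdc1 at -0.73 at 2 h. Within set 2, Krt15 was at -1.06 and -1.29 at 12 and 24 h, and Lgr6 at -0.39 and Sostdc1 at -0.26 at 2 h. Minus the basal list's median in set 1, Krt15 was at 0.12, 0.25, -0.50, -0.050 and -0.63 at the 5 times, Lgr6 at -0.43, -0.84 and -0.28 at 2, 6 and 12 h, and Sostdc1 at 0.034, -0.80, -0.51 and -0.64 at 0.5, 6, 12 and 24 h. In set 2, Krt15 was at -0.084 and -0.79 at 2 and 6 h, Lgr6 at -0.022, -0.70, -0.21 and -0.27 at 2, 6, 12 and 24 h, and Sostdc1 at 0.10, -0.84 and -0.57 at 2, 6 and 12 h. The muscle covariate moved Krt15 at 2 h to -0.18, quantile normalization moved Lgr6 at 2 h to -0.52, and a pseudocount of 0.1 moved Lgr6 at 6 h to -1.37. The filter at a mean of 5 FPKM removed Lgr6 and left 3 companion calls at 12 h and 3 at 24 h; median-of-ratios scaling left 2 at 2 h, and quantile normalization gave 15 at 6 h. The cause of these differences was not tested.

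Leaving out 1 library gave -0.45 to -0.0011 for Krt15 at 0.5 h, -0.56 to -0.19 at 2 h, -1.22 to -0.85 at 6 h and -0.96 to -0.50 at 12 h. It gave -0.57 to -0.17 for Lgr6 at 0.5 h and -0.92 to -0.59 at 2 h, and -0.30 to 0.02 for Sostdc1 at 0.5 h (above 0 only without set 1's 0.5 h library), -0.66 to -0.31 at 2 h and -1.20 to -0.67 at 24 h. Companion calls ranged from 0 to 7 at 2 h, 0 to 15 at 6 h, 1 to 16 at 12 h and 0 to 7 at 24 h. They were 0 at 2 h without either unirradiated library, 0 at 24 h without the unirradiated library of set 1 or set 2's 24 h library, and 1 at 12 h without the unirradiated library of set 2 or either 12 h library. Fits without set 3's 6 h library gave 7 and 16 at 2 and 12 h. At 2 h there were 2 without either 0.5 h library or set 2's 6 h library, and 1 without set 1's or set 3's 2 h library. At 12 h there were 2 without the unirradiated library of set 1 and 8 without set 2's 2 h library. At 24 h there were 1 without the unirradiated library of set 2 and 3 without set 2's 6 h library. Depth limits Lgr6 most, with 94 to 374 reads per library.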
